A study of Mus musculus with 32 samples.

Results

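The circadian clock and the PAR bZIP transcription factors were followed as 10 genes in microglia of the rTg4510 tau model, Hlf, Dbp, Tef, Nfil3, Per1, Per2, Per3, Nr1d1, Nr1d2 and Arntl (also called Bmal1). They were picked by name from the 18588 genes of the expression table, and all 10 were found there. Hlf was selected on its strong fall in rTg4510 microglia, so its genotype differences are a description and carry no test. The other 9 genes were listed for their place in the same pathway, with earlier results of these data already known.

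The clock is a feedback loop of transcription factors. ARNTL pairs with CLOCK and activates genes that carry an E-box, among them the Period genes, Dbp and the REV-ERB genes Nr1d1 and Nr1d2. The PERIOD proteins repress this activator, and the REV-ERB proteins repress Arntl and Nfil3 through ROR elements. DBP, TEF and HLF form the PAR bZIP family (basic leucine zipper proteins with a domain rich in proline and acidic residues) and activate genes with a D-box, the same element through which NFIL3 (E4BP4) represses. Per1 is also an acute target of glucocorticoid and stimulus-driven signalling. Clock genes are expressed rhythmically in macrophages, microglia included.

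RNA of CD11b bead-captured cells from pooled forebrains of female mice was sequenced at 2, 4, 6 and 8 months of age. rTg4510 mice (strain label rTg4510) carry human 4-repeat tau with the P301L mutation under a tetracycline-responsive element, together with a tTA transgene driven by CaMKIIα in forebrain neurons. WT mice (strain label 129/FVB F1) were littermates with neither transgene, and the effect of tau cannot be told apart from that of tTA or of the transgene insertions. Of 32 libraries 28 were used, so that each genotype had 4 at the ages of 2 and 6 months and 3 at those of 4 and 8 months. The remaining 4, which had failed quality control (both libraries numbered 3 at 4 months and both numbered 4 at 8 months), enter only where they are named. The time of day at which the animals were killed is not given in the sources used here, so phase and level of a clock gene cannot be told apart. Replicates were separate pools of animals, but the labels do not say what a replicate number marks. The captured cells carried microglia markers throughout, with a summed signal of the 8 markers between 14.4 and 15.2 on the log2 scale in all 28 libraries. In bulk RNA, fewer cells of a type and less RNA per cell cannot be told apart.

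To show which members carry clock elements next to their start sites, the 250 bases upstream of RefSeq transcript starts (GRCm38.p6) were searched on both strands for the E-box CACGTG, the D-box forms TTATGTAA, TTATGCAA and TTACGTAA, the cAMP response element TGACGTCA and AGGTCA, the core of a ROR element. Over all 32851 promoters of the RefSeq table, 6.02% held the E-box, 1.61% any of the D-box forms, 1.55% the cAMP response element and 14% the ROR core. Promoters with a match are printed from 5′ to 3′ on the gene's strand, with the matches in capitals. No printed matches overlapped.
Hlf (chr11:90390918-90391167, minus strand): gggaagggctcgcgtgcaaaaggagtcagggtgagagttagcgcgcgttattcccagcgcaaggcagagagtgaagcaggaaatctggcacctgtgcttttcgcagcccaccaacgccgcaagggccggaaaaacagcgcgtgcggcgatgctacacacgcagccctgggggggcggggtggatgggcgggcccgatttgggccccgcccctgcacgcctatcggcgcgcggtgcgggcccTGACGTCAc
Tef (chr15:81802423-81802672, plus strand): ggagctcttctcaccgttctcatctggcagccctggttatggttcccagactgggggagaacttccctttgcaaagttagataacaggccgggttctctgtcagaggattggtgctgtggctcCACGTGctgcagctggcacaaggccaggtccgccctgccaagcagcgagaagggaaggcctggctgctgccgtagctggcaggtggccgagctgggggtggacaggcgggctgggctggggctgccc
Nfil3 (chr13:52981040-52981289, minus strand): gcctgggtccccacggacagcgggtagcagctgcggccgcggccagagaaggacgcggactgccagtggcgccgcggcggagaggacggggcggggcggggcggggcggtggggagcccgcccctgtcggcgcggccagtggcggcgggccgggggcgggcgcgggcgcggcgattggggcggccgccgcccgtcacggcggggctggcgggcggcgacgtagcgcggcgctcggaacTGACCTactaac
Per1 (chr11:69098699-69098948, plus strand): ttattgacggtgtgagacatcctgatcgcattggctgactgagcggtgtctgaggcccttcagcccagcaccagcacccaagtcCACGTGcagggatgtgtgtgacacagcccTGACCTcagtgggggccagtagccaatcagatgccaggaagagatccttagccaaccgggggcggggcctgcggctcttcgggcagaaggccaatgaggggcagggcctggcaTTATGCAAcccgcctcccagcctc
Per3 (chr4:151044666-151044915, minus strand): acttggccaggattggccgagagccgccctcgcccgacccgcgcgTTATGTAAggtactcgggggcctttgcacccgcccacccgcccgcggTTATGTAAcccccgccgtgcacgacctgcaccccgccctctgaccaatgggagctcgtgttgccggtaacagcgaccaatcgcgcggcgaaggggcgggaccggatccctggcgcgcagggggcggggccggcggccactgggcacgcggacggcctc
Nr1d2 (chr14:18239107-18239356, minus strand): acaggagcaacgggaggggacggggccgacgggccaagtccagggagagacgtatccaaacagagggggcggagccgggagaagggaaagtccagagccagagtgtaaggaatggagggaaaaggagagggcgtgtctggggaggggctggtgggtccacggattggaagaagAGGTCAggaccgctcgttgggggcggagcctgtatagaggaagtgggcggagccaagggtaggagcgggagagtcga
Per3 held the D-box TTATGTAA at 2 places, 205 to 198 and 158 to 151 bases upstream of its start. Per1 held an E-box, a D-box and a ROR core, while its other start, at which transcription begins further downstream, held none of them. Tef held an E-box upstream of each of its 2 starts, of which the first is printed. Hlf held the cAMP response element directly at its start, and Nfil3 and Nr1d2 each held a ROR core. The windows of Dbp, Nr1d1 and Arntl held none of these letters. Per2 was not searched.

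The comparison of genotypes at each age asks at which ages the clock genes of microglia differed with tau pathology. At 2 months none of the 9 genes tested was called. From 4 months on, Dbp, Tef, Per2 and Per3 fell at each age, Nr1d1 and Nr1d2 fell at 4 and 8 months, Nfil3 rose at 6 and 8 months, and Arntl was not called at any age. Per1 was not called at any age without a replicate block and was called up at 8 months with one (FDR = 0.0155). That block pairs same-numbered libraries at all 4 ages, although the numbers were taken to pair libraries at 6 and 8 months only. A gene was called when limma's FDR over all genes was under 0.05 and the change exceeded 1.5 fold. At 2 months 0 of 9 genes were called by limma with or without moderated variances, 1 of 9 (Per1, higher) had an unadjusted p under 0.05, and 0.403% of all genes were called down and 1.58% up. At 4 months 6 of 9 were called down and 0 up (with or without moderated variances in limma, and 1 higher, Nfil3, with an unadjusted p under 0.05), against 4.33% and 9.47% of all genes. At 6 months 4 of 9 were called down and 1 up, against 8.54% and 11.3%, and at 8 months 6 of 9 down and 1 up (8 called in all with the block), against 5.37% and 10.5%. The median log2 fold change of the 9 genes was -0.01, -0.77, -0.32 and -0.71 at the 4 ages, beside -0.04 to 0.01 over all genes. All rTg4510 libraries lay below all WT libraries for 0, 6, 4 and 5 of the 9 genes, where 3.51%, 17.5%, 14.6% and 15.5% of all genes did.

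**Figure D1:**
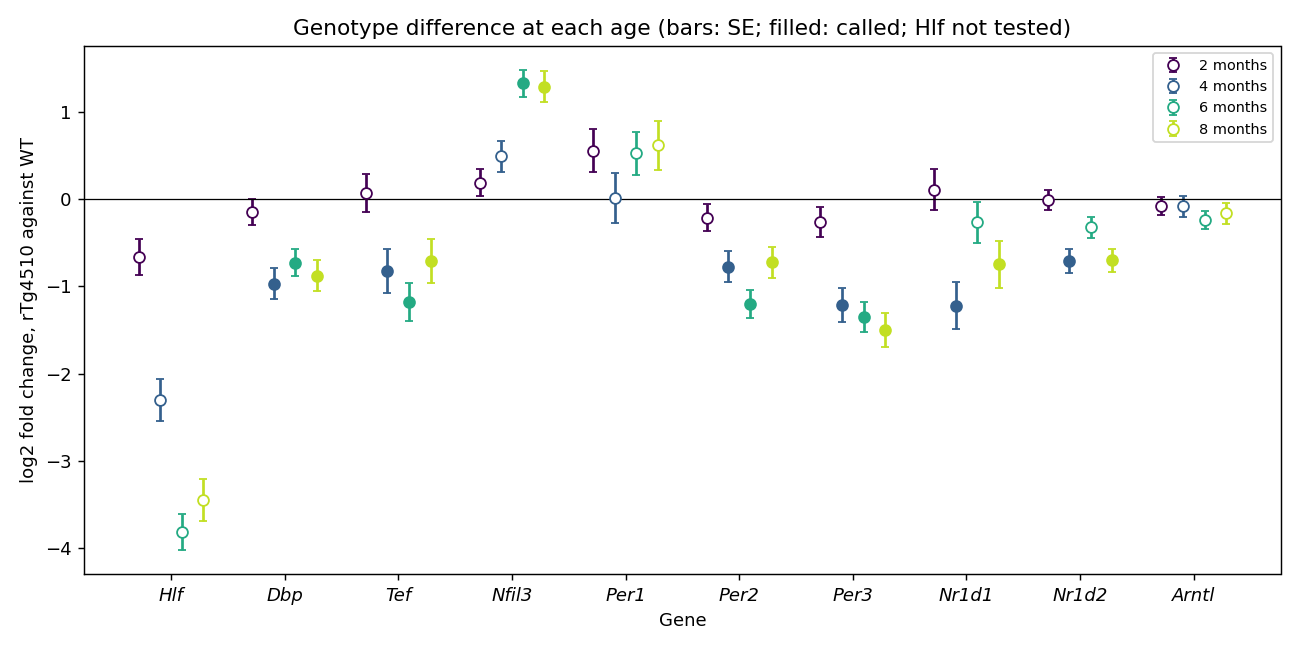
Log2 fold change of rTg4510 against WT for each of the 10 genes (x axis) at 2, 4, 6 and 8 months, with SE bars from the linear model. Filled points were called, and Hlf was not tested. From 4 months on, Hlf, Dbp, Tef, Per2, Per3, Nr1d1 and Nr1d2 lie below 0 and Nfil3 above it, while Arntl stays between -0.24 and -0.08.

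Hlf (chr11:90336536-90390895, minus strand, GRCm38), a PAR bZIP activator, had WT signals of 7.48, 7.88, 7.68 and 7.39 at 2 months on the log2 scale, and rTg4510 signals of 7.01, 7.40, 6.64 and 6.73. At 4 months the WT libraries read 8.00, 7.93 and 7.84 and the rTg4510 libraries 5.78, 5.89 and 5.20. The genotypes overlapped by 1 rTg4510 library at 2 months and lay more than 1 log2 unit apart at 4 months. At 6 months WT gave 7.79, 7.83, 7.78 and 7.63 and rTg4510 gave 4.06, 3.66, 4.49 and 3.58. At 8 months WT gave 7.95, 7.41 and 7.97 and rTg4510 gave 4.45, 3.97 and 4.58. The WT group means thus lay within 7.61 to 7.92, while those of rTg4510 went from 6.95 at 2 months to 3.95 at 6 months. The log2 fold change was -0.66 ± 0.21 (SE) at 2 months, -2.30 ± 0.24 at 4 months, -3.81 ± 0.21 at 6 months and -3.44 ± 0.24 at 8 months, or 1.58, 4.92, 14.05 and 10.9 fold lower. Between neighbouring ages the difference changed by -1.64 ± 0.32, by -1.52 ± 0.32 and by 0.37 ± 0.32. In order of level, neighbours among the 4 WT groups and rTg4510 at 2 months were not clear of each other, rTg4510 at 2 months was clear of 4 months and 4 months of 8 months, and 8 and 6 months overlapped. Here a group is clear of the next when its lowest library lies above the highest library of the next. The lowest Hlf signal, in rTg4510 at 6 months, lay 2.27 log2 units above the lowest signal of any gene in its library.

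**Figure D2:**
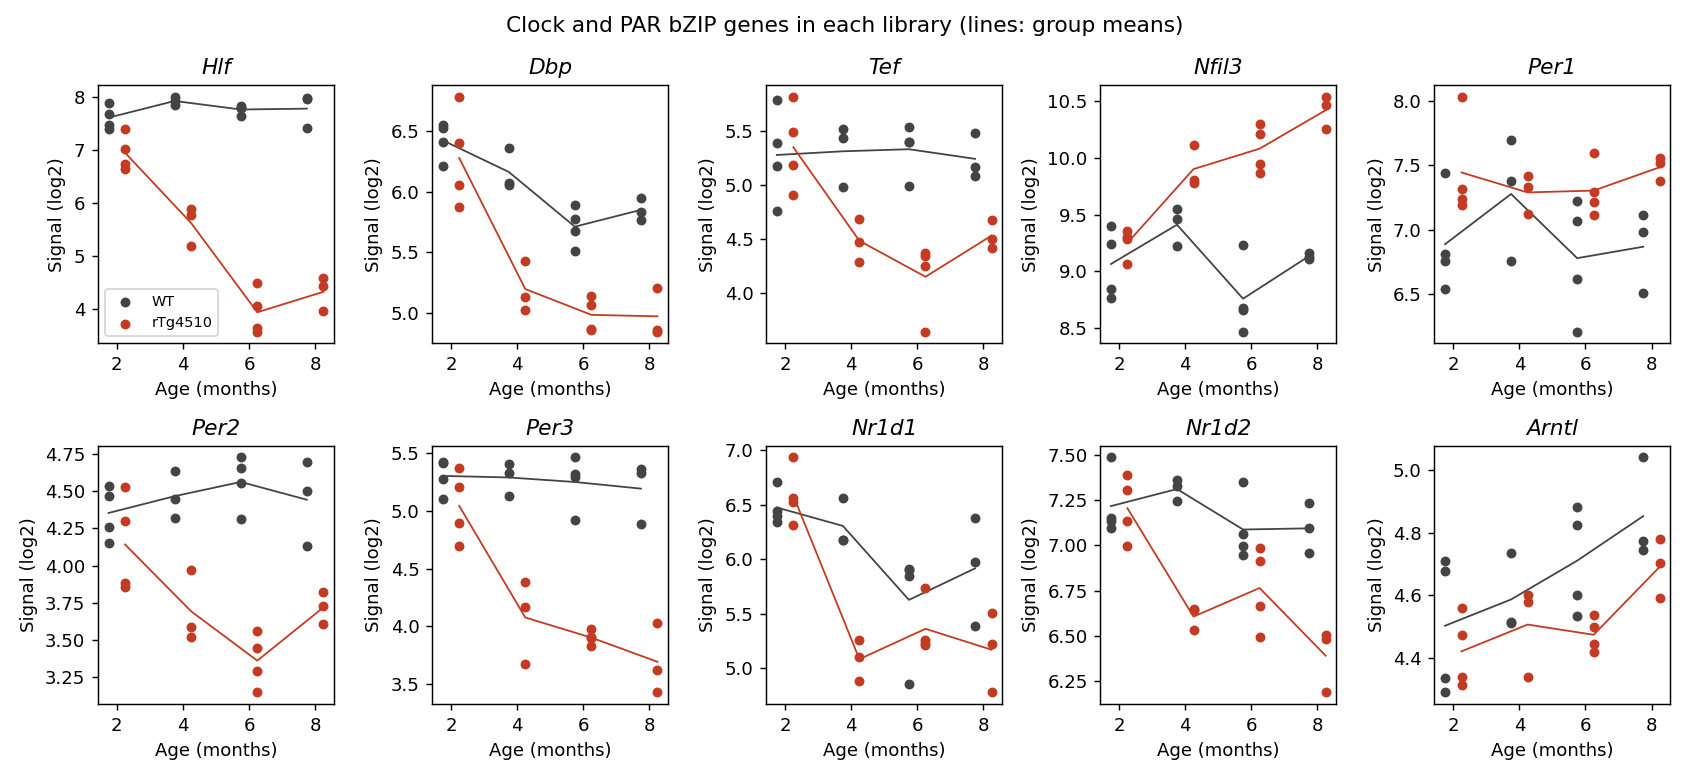
Log2 signal (y axis) of the 10 genes in each of the 28 libraries at 2, 4, 6 and 8 months (x axis), WT in grey and rTg4510 in red, with lines through the group means. Hlf separates by genotype from 4 months on, with rTg4510 means of 5.62, 3.95 and 4.33, while Arntl and Per1 overlap at most ages.

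Dbp and Tef, the other PAR bZIP activators, fell at 4, 6 and 8 months. Dbp (chr7:45705088-45710203, plus strand) ranged from 6.06 to 6.36 in WT and from 5.02 to 5.43 in rTg4510 at 4 months. It ranged from 5.51 to 5.89 against 4.86 to 5.14 at 6 months, and from 5.77 to 5.95 against 4.84 to 5.21 at 8 months. No library crossed over to the other genotype at these ages, whereas at 2 months the genotypes overlapped. The log2 fold change of Dbp was -0.97 ± 0.18 at 4 months (FDR = 0.000303), -0.73 ± 0.15 at 6 months (FDR = 0.000805) and -0.88 ± 0.18 at 8 months (FDR = 0.00068). In both genotypes its highest level was at 2 months, with means of 6.43 ± 0.16 (SD, n = 4) in WT and 6.28 ± 0.40 (n = 4) in rTg4510. Of the 2993 exon bases of Dbp, 539 are shared with Sphk2 on the opposite strand, and the library kit does not keep strand. Reads there cannot be told apart, and Sphk2 itself was not called at any age (log2 fold change -0.17 to -0.01). With all 32 libraries the call of Dbp at 6 months was lost (FDR = 0.0839).

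Tef (chr15:81802421-81826863, plus strand) ranged from 4.98 to 5.52 in WT and from 4.29 to 4.69 in rTg4510 at 4 months, and from 4.99 to 5.53 against 3.64 to 4.37 at 6 months. At 8 months it ranged from 5.08 to 5.48 against 4.42 to 4.67, so that the genotypes did not overlap at these ages. Its log2 fold change was -0.83 ± 0.25 (FDR = 0.0205), -1.18 ± 0.22 (FDR = 0.000213) and -0.71 ± 0.25 (FDR = 0.043) at 4, 6 and 8 months. The WT means stayed within 5.24 to 5.33. The call at 6 months held with each library left out in turn. The call at 4 months was lost without rTg4510 replicate 4 or WT replicate 1 or 2 of that age (FDR up to 0.084), and the call at 8 months without any 1 of the 6 libraries of that age or rTg4510 replicate 1 of 4 months (FDR up to 0.153). With only the groups of an age in the fit the FDR of Tef was 0.0877 at 4 months and 0.0546 at 8 months, and with all 32 libraries it was 0.143 at 8 months. Of the 7867 exon bases of Tef, 193 are shared with the antisense gene Gm17597, whose reads there cannot be told apart from those of Tef and which was called lower at 4 and 6 months (-2.13 and -1.51 on the log2 scale).

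Nfil3 (chr13:52967209-52981073, minus strand), the repressor that competes with the PAR bZIP activators for the D-box, moved the other way. Its WT signals at 6 months were 8.65, 8.47, 9.23 and 8.68, and its rTg4510 signals 10.21, 9.95, 10.30 and 9.87. At 8 months they were 9.16, 9.11 and 9.13 in WT and 10.54, 10.47 and 10.25 in rTg4510. Every rTg4510 library was thus above every WT library at both ages. Nfil3 rose by 1.33 ± 0.16 on the log2 scale at 6 months (2.51 fold, FDR = 6.75e-07) and by 1.29 ± 0.18 at 8 months (2.44 fold, FDR = 9.44e-06). At 4 months the rTg4510 libraries were also all above WT, at 9.81, 9.78 and 10.11 against 9.47, 9.22 and 9.55, but the change of 0.49 ± 0.18 was under 1.5 fold (FDR = 0.053). In order of level, rTg4510 at 8, 6 and 4 months came first, each overlapping the next, and rTg4510 at 4 months was clear of WT at 4 months, the next below. The rTg4510 library was higher than the WT library of the same number in 13 of 14 pairs, a description only, since the numbers were not taken to pair libraries at 2 and 4 months.

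Among the Period genes, Per2 and Per3 fell from 4 months on and Per1 was not called. Per3 (chr4:151003652-151044665, minus strand), whose promoter holds the 2 D-boxes above, read 5.13, 5.41 and 5.33 in WT at 4 months and 4.17, 4.38 and 3.67 in rTg4510. At 6 months it read 5.46, 5.30, 5.32 and 4.92 against 3.83, 3.89, 3.90 and 3.98, and at 8 months 5.36, 4.88 and 5.33 against 3.62, 3.43 and 4.03. The genotypes were apart at all 3 ages and overlapped at 2 months. Per3 fell by 1.21 ± 0.20 on the log2 scale at 4 months (FDR = 7.48e-05), by 1.35 ± 0.17 at 6 months (FDR = 1.89e-06) and by 1.5 ± 0.20 at 8 months (2.83 fold, FDR = 4.22e-06). After Hlf, Per3 had the most negative log2 fold change of the 10 genes at 6 and 8 months. WT Per3 stayed at means of 5.19 to 5.30.

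Per2 (chr1:91415982-91459324, minus strand), a repressor of the ARNTL and CLOCK pair like the other Period genes, ranged from 4.32 to 4.63 in WT against 3.52 to 3.97 in rTg4510 at 4 months, and from 4.31 to 4.73 against 3.15 to 3.56 at 6 months. It ranged from 4.13 to 4.69 against 3.61 to 3.82 at 8 months, again without overlap. The decrease was deepest at 6 months, with a log2 fold change of -0.77 ± 0.18 (FDR = 0.00282), -1.20 ± 0.16 (FDR = 2.73e-06) and -0.72 ± 0.18 (FDR = 0.00436) at 4, 6 and 8 months. The difference between 6 and 8 months changed by 0.48 ± 0.24. With only the groups of an age in the fit, Per2 was not called at 4 months (FDR = 0.0676) or 8 months (FDR = 0.0812). The mean signal of Per2 lay under the 25th percentile of all genes, unlike that of the other 9 of 10.

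Per1 (chr11:69095217-69109960, plus strand) read 7.44, 6.76, 6.54 and 6.82 in WT at 2 months and 8.03, 7.24, 7.20 and 7.32 in rTg4510. At 8 months it read 6.98, 7.12 and 6.51 in WT and 7.56, 7.52 and 7.38 in rTg4510. The rTg4510 libraries lay above all WT libraries at 8 months and overlapped with them at 2, 4 and 6 months, with log2 fold changes of 0.56 ± 0.24, 0.01 ± 0.28, 0.52 ± 0.24 and 0.62 ± 0.28 over the 4 ages (FDR = 0.247, 0.985, 0.107 and 0.123). The 95% interval at 8 months ran from 0.03 to 1.21. With a replicate block for libraries of one age and number, Per1 was called at 8 months (FDR = 0.0155, the same fold change). At 2 and 6 months its FDR was 0.0403 and 0.0134, with changes under 1.5 fold. These values share 1 residual spread over the 4 ages, and at 2 and 4 months the numbers were not taken to pair libraries. The rTg4510 library exceeded its same-numbered WT library in 13 of 14 pairs, in 4 of 4 at 2 and at 6 months, in 2 of 3 at 4 months and in 3 of 3 at 8 months. These counts are a description, since at 2 and 4 months the numbers were not taken to pair libraries.

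The REV-ERB genes fell at 4 and at 8 months. Nr1d1 (chr11:98767932-98775333, minus strand) read 6.56, 6.17 and 6.17 in WT at 4 months against 5.26, 4.89 and 5.11 in rTg4510, a log2 fold change of -1.22 ± 0.27 (2.33 fold, FDR = 0.00191) without overlap. At 6 months it read 5.84, 4.86, 5.91 and 5.90 against 5.21, 5.24, 5.74 and 5.26, and was not called (-0.26 ± 0.23, FDR = 0.413). The WT replicate 2 at 4.86 was the lowest of all these libraries, and without it the change was -0.52 (FDR = 0.0654). At 8 months it read 6.38, 5.98 and 5.39 against 5.23, 5.51 and 4.78, which overlapped, and the change of -0.74 ± 0.27 was close to the threshold (FDR = 0.0484). This call was lost in 23 of 28 fits that left out 1 library (FDR 0.0123 to 0.231 over the fits) and held without replicate 1 of 2 months, 3 of 6 months or 2 of 8 months of rTg4510, or replicate 2 of 6 months or 3 of 8 months of WT. It was also lost with only the groups of 8 months (FDR = 0.276) and with all 32 libraries (FDR = 0.0647). Of the 3077 exon bases of Nr1d1, 8.55% are shared with Thra, the thyroid hormone receptor gene on the opposite strand. Reads of these bases cannot be told apart, and Thra was called lower at 4 months (-0.62 ± 0.19, FDR = 0.0219).

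Nr1d2 (chr14:18204054-18239127, minus strand) ranged from 7.25 to 7.36 in WT against 6.53 to 6.65 in rTg4510 at 4 months, and from 6.96 to 7.23 against 6.19 to 6.50 at 8 months. The genotypes did not overlap at these ages, and the gene fell by 0.70 ± 0.14 on the log2 scale at each of them (FDR = 0.000528 and 0.000459). At 6 months the libraries overlapped, and the change of -0.32 ± 0.12 (FDR = 0.0399) was under 1.5 fold. With all 32 libraries the change at 4 months was -0.40 and was not called (FDR = 0.0968). In order of level, rTg4510 at 8 months lay lowest and was clear of rTg4510 at 4 months, the next above it.

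Arntl (chr7:113207465-113314126, plus strand), the activator of the loop and a target of the REV-ERB repressors, overlapped between genotypes at each age. Its libraries read 4.73, 4.51 and 4.51 in WT at 4 months against 4.34, 4.60 and 4.58 in rTg4510. At 6 months they read 4.60, 4.53, 4.82 and 4.88 against 4.50, 4.44, 4.42 and 4.54, and at 8 months 4.77, 4.74 and 5.04 against 4.78, 4.70 and 4.59. Its log2 fold change was -0.08 ± 0.10, -0.08 ± 0.12, -0.24 ± 0.10 and -0.16 ± 0.12, with FDR values of 0.793, 0.689, 0.0842 and 0.36. The 95% intervals of these changes reached from -0.45 to 0.17 over the 4 ages, within 1.5 fold in either direction.

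The model also allows the change over age within each genotype and its difference between genotypes to be tested. In WT the age effect passed the FDR threshold for 1 of 9 genes, Dbp (FDR = 0.0432), against 2.37% of all genes. In rTg4510 it passed for 7 of 9, all but Per1 and Arntl, against 27% of all genes, and these 7 passed with each library left out in turn. The genotype by age interaction passed for 5 of 9, against 11.3% of all genes, with an FDR of 0.00209 for Nfil3, 0.00527 for Per3, 0.0237 for Nr1d2, 0.0275 for Per2 and 0.0463 for Tef. Nfil3 and Per3 passed in each of the 28 fits with 1 library left out. Nr1d2 was lost in 5 of them (replicates 1 and 4 of rTg4510 and 1, 3 and 4 of WT at 2 months, FDR up to 0.0575). Per2 was lost in 8 (replicates 1 and 2 of rTg4510 and 1 and 3 of WT at 2 months, replicates 2 and 4 of rTg4510 and 3 and 4 of WT at 6 months, FDR up to 0.0668). Tef was lost in 22 (FDR up to 0.111) and held only without replicate 4 of 2 months, 2 of 4 months or 1 of 6 months of rTg4510, or replicate 2 of 2 months or 4 of 4 or 6 months of WT. Dbp (FDR = 0.0619) passed without replicate 3 or 4 of 2 months, 2 of 4 months or 1 of 8 months of rTg4510, and Nr1d1 (FDR = 0.0659) without replicate 2 of 6 months or 3 of 8 months of WT, with an FDR of 0.0173 or more. The WT age effect of Dbp was lost in 19 fits (FDR up to 0.105). It held without replicates 1, 3 or 4 of 2 months, 2 or 4 of 4 months, 4 of 6 months or 1 of 8 months of rTg4510, or replicate 3 of 6 or 8 months of WT, and without WT replicate 3 of 6 months Nfil3 passed as well (FDR = 0.0344). The largest steps of the genotype difference lay between 2 and 4 months for Per3 (-0.95 ± 0.26), Nr1d1 (-1.33 ± 0.36) and Nr1d2 (-0.69 ± 0.18), and between 4 and 6 months for Nfil3 (0.83 ± 0.24).

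Arntl is known to cycle out of phase with the genes it drives. With group means subtracted, Arntl was set against each other member over the 14 libraries of a genotype. In WT, Dbp rose and fell with Arntl (Pearson r = 0.73, exact permutation p = 0.0122, Spearman rho = 0.61, exact permutation p = 0.0301). The adjusted p was 0.22 for r and 0.543 for rho over the 18 relations, and r was 0.68 without the 2 libraries farthest from the median of Arntl. In rTg4510 the same relation had an r of 0.16. Of the 18 relations, 0 passed after adjustment and 1 had an unadjusted exact permutation p under 0.05, and r ranged from -0.12 to 0.73 in WT and from -0.32 to 0.28 in rTg4510. Per3 and Arntl had an r of -0.12 in each genotype. Of the 45 pairs among the 10 genes, 36 had a positive r in WT and 36 in rTg4510, with a median of 0.26 and 0.33. Libraries of a genotype share their normalization, and these values over pairs are given as a description. Among all genes named in RefSeq, none of the 5 nearest and 5 farthest from Arntl over the 28 libraries was a clock gene. Peg13, an imprinted non-coding RNA, had the highest r (0.79) and Dsg2, a desmosomal cadherin, the lowest (-0.75). For Dbp these were 4930555A03Rik (0.80) and Gm12416 (-0.77), and again none of the 10 was a clock gene.

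The replicate number was examined in the members because both genotypes carry the numbers 1 to 4. Over 14 pairs of same-numbered libraries of an age, the deviations of Per1 from its group means rose and fell together in WT and rTg4510 (Pearson r = 0.78, exact permutation p = 0.0026, Spearman rho = 0.79, exact permutation p = 0.00188). The adjusted p over the 10 genes was 0.026 for r and 0.0188 for rho, r was 0.74 without the 2 pairs farthest from the median, and 13 of 14 pairs deviated in the same direction. For Nfil3 the r was 0.60, with an adjusted p of 0.147 (exact permutation test), and for the other 8 genes it ranged from -0.19 to 0.60. Over all 16 pairs, with the libraries that failed quality control, the r of Per1 was 0.53 (adjusted exact permutation p = 0.212). In rTg4510 replicate 1 of 2 months Per1 stood at 8.03, and in WT replicate 1 of that age at 7.44, each the highest library of its group.

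**Figure D3:**
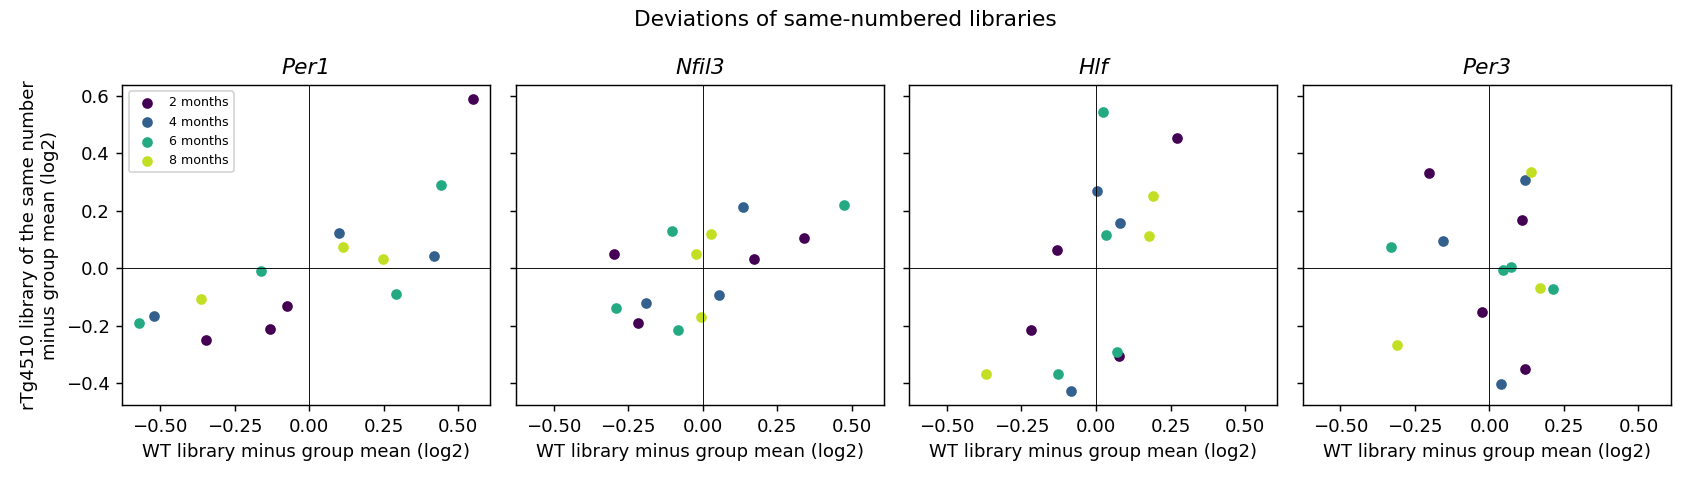
Deviation of each rTg4510 library from its group mean (y axis, log2) against that of the WT library with its number and age (x axis, log2), for Per1, Nfil3, Hlf and Per3, with colours for the 4 ages. In Per1 13 of 14 points lie at the lower left or upper right of the origin, and in Per3 6 of 14.

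The genes that moved with Per1 within groups were looked up after its values had been seen. Among them was Tsc22d3 (r = 0.91), a glucocorticoid-induced leucine zipper gene. Over the list of 8 glucocorticoid response genes the median r with Per1 was 0.31 (range -0.14 to 0.91), and over 10 immediate early genes it was 0.75 (range 0.65 to 0.85), beside a median of -0.04 over all genes. Over all ages the summed immediate early signal ranged from 17.3 to 18.1 in WT and from 17.4 to 18.2 in rTg4510 on the log2 scale. Linear signals were summed, so Jun, the gene of highest signal in the list (WT means of 16.9 to 17.1), weighs most. Its log2 fold change was -0.09, -0.54, -0.38 and -0.49 at the 4 ages, not called, unlike the positive list medians below. Of the 10 immediate early genes, 2, 2, 4 and 2 were called up at the 4 ages, against 1.58%, 9.47%, 11.3% and 10.5% of all genes. Their median log2 fold change was 0.35, 0.18, 0.52 and 0.42. Nr4a1, an orphan nuclear receptor, rose at each age, by 1.43, 1.40, 2.25 and 2.24 on the log2 scale, and Egr2, a zinc finger factor, by 1.14, 1.48, 1.02 and 0.90. Of the 8 glucocorticoid response genes 3 calls were made, Zbtb16 up at 4 and 6 months (1.08 and 0.94) and Ddit4 down at 8 months (-1.45), while Tsc22d3 itself was not called at any age (-0.18 to 0.48). The part of the immediate early signal in the level of Per1 was not tested.

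Other genes of the loop changed in both directions. Of 10 further core clock genes, 0 were called at 2 months (0 with an unadjusted p under 0.05, and 0 with moderated variances in limma). At 4, 6 and 8 months 2, 2 and 1 were called up, against 9.47%, 11.3% and 10.5% of all genes. The count at 8 months was near that share, and the counts called down are not reported here. Bhlhe40 (DEC1), a repressor that binds E-boxes, rose by 1.73 ± 0.32, 1.86 ± 0.27 and 1.57 ± 0.32 on the log2 scale at 4, 6 and 8 months (FDR = 0.000309, 1.56e-05 and 0.000663). Rora, an activator at ROR elements, rose at 6 months (0.65 ± 0.22, FDR = 0.0265), and Timeless, a replication and clock gene, at 4 months (1.28 ± 0.30, FDR = 0.00283). Cry2, a cofactor of the Period proteins, fell at 6 months (-0.67 ± 0.20, FDR = 0.0128). Clock, the partner of Arntl, had log2 fold changes of -0.20 to -0.01 and was not called. Rora and Clock were named after their values had been seen.

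Among 8 genes for the turnover of clock proteins, 0 were called at 2, 4 and 6 months by limma with or without moderated variances (0, 3 and 4 with an unadjusted p under 0.05). Of the 3 at 4 months 2 were lower, and of the 4 at 6 months 3 were lower. Fbxl21, an F-box gene, was called up at 8 months (1.26 ± 0.30, FDR = 0.00332). At that age 3 of the 4 genes with an unadjusted p under 0.05 were lower. Another list held 6 genes named as C/EBP factors, most but not all of them bZIP proteins. Of these, Cebpd fell at 4, 6 and 8 months by 0.99 ± 0.13, 0.89 ± 0.11 and 0.95 ± 0.13 on the log2 scale (FDR = 5.25e-06, 1.93e-06 and 7.11e-06), and Cebpb rose at 6 months (0.63 ± 0.19, FDR = 0.0137). At 2 months 0 of the 6 were called by limma with or without moderated variances (1 with an unadjusted p under 0.05). Of 8 output genes 0 were called at 2 months (2 with an unadjusted p under 0.05, 0 with moderated variances in limma), and 1, 2 and 2 were called up at 4, 6 and 8 months. Alas1, which starts haem synthesis and is driven by the clock in other tissues, rose at 6 and 8 months (0.65 ± 0.07 and 0.66 ± 0.08), as did Hmox1, which breaks haem down (0.67 ± 0.19 and 0.85 ± 0.22). Wee1, a kinase of the cell cycle, rose at 4 months (1.27 ± 0.29). Here the counts are read beside the shares of all genes called that are given above.

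**Figure D4:**
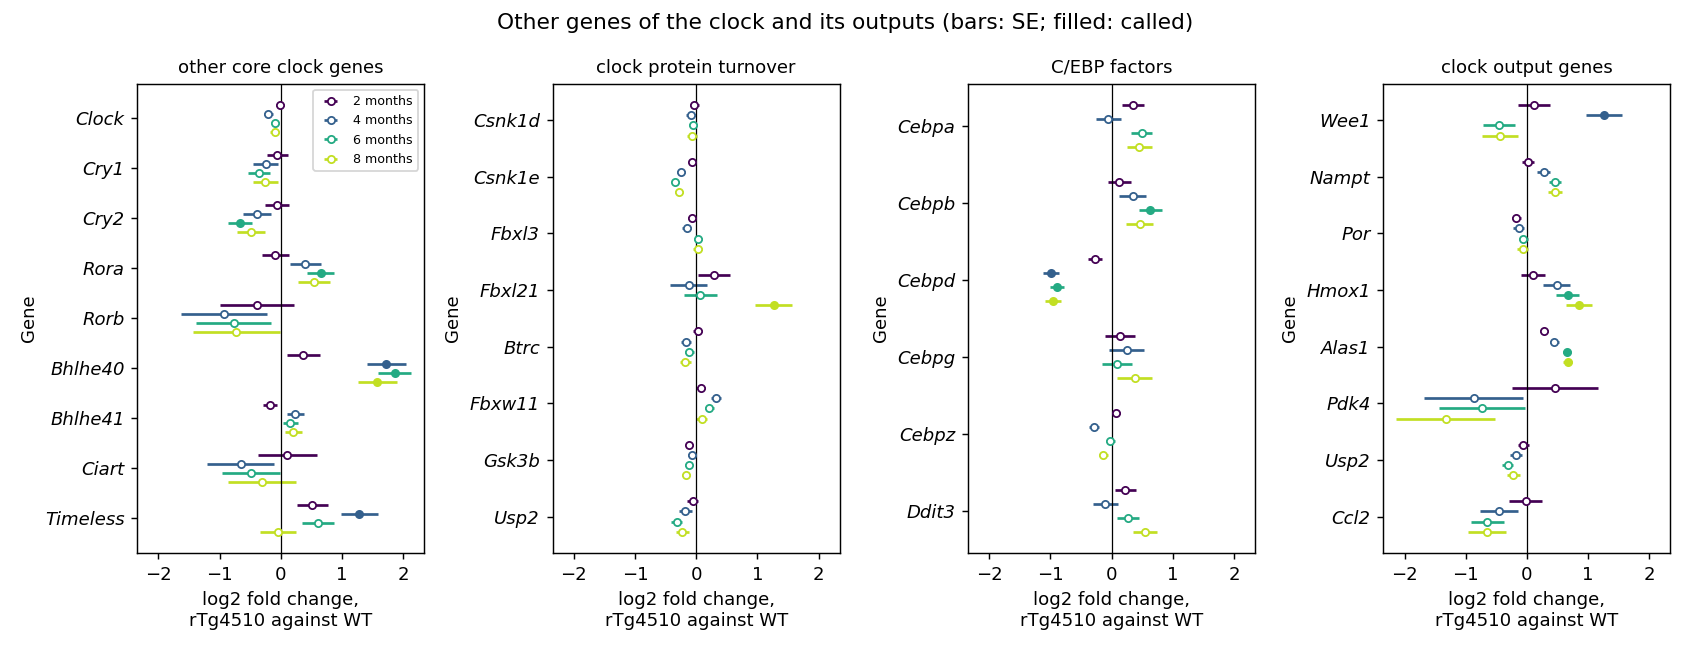
Log2 fold change of rTg4510 against WT (x axis, SE bars) for further core clock genes, genes of clock protein turnover, C/EBP factors and clock output genes at the 4 ages. Filled points were called. Bhlhe40 lies at 1.57 to 1.86 from 4 months on and Cebpd at -0.99 to -0.89, and genes with a group near the lowest signal of its libraries are not drawn.

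Some markers of other cell types, but not of each type, differed between the genotypes at ages at which clock genes were called. The summed log2 signal of 5 neutrophil markers ranged from 8.98 to 9.84 in WT and from 7.94 to 8.71 in rTg4510 at 4 months, from 8.82 to 10.2 against 7.19 to 7.87 at 6 months, and from 9.75 to 10.2 against 7.52 to 8.86 at 8 months. At 6 and 8 months 4 of 5 were called down (S100a8 at -2.15 on the log2 scale at 6 months), and Ly6g lay near the lowest signal in rTg4510 at 8 months. The summed signal of the 6 astrocyte markers ranged from 10.2 to 10.5 in WT against 9.48 to 9.78 in rTg4510 at 6 months. There 2 were called down (Aqp4, Slc1a3) and Gfap up. Linear signals were summed, so Slc1a3 weighs most at 6 months (WT mean of 9.85, beside 7.80 for Aqp4). At 8 months the astrocyte sum ranged from 10.4 to 11.6 against 9.65 to 10.2. Of its genes 3 were called down, Aqp4 (-1.38), Slc1a2 (-2.14) and Slc1a3 (-0.71), and Gfap up (1.80), with a list median of -1.11. Of the 4 neuron markers measured, 1 (Snap25) was called down at 6 months, where their sum ranged from 5.08 to 6.48 in WT and from 4.22 to 5.78 in rTg4510. The 6 oligodendrocyte markers had 0 called at any age (1 lower at 6 months with an unadjusted p under 0.05, 0 with moderated variances in limma), and their sums ranged from 7.92 to 8.29 in WT against 7.21 to 7.74 in rTg4510 at 6 months. Of 6 endothelial markers, 1, 2 and 1 were called down (Pecam1 at each age) and 1 up (Flt1) at 4, 6 and 8 months, with sums of 7.06 to 7.80 in WT and 7.03 to 7.42 in rTg4510 at 6 months. Of 5 border macrophage markers 1 was called down at 6 months (Lyve1), where the sums ranged from 10.2 to 10.8 in WT and from 9.92 to 10.3 in rTg4510. Of 4 lymphocyte markers 1 was called down at 4 months (Cd79a), with sums of 5.39 to 6.97 in WT and 4.39 to 5.90 in rTg4510. Among the 8 microglia markers 1, 1, 2 and 2 were called down at the 4 ages, Tmem119 at 4, 6 and 8 months (-0.78 to -0.72), and their summed signal at 6 months ranged from 15.0 to 15.1 in WT and from 14.6 to 14.8 in rTg4510. The ranges of this sum did not overlap at 4, 6 and 8 months. The part of other cells in the fall of Hlf, Dbp, Tef, Per2, Per3, Nr1d1 and Nr1d2 was not tested.

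**Figure D5:**
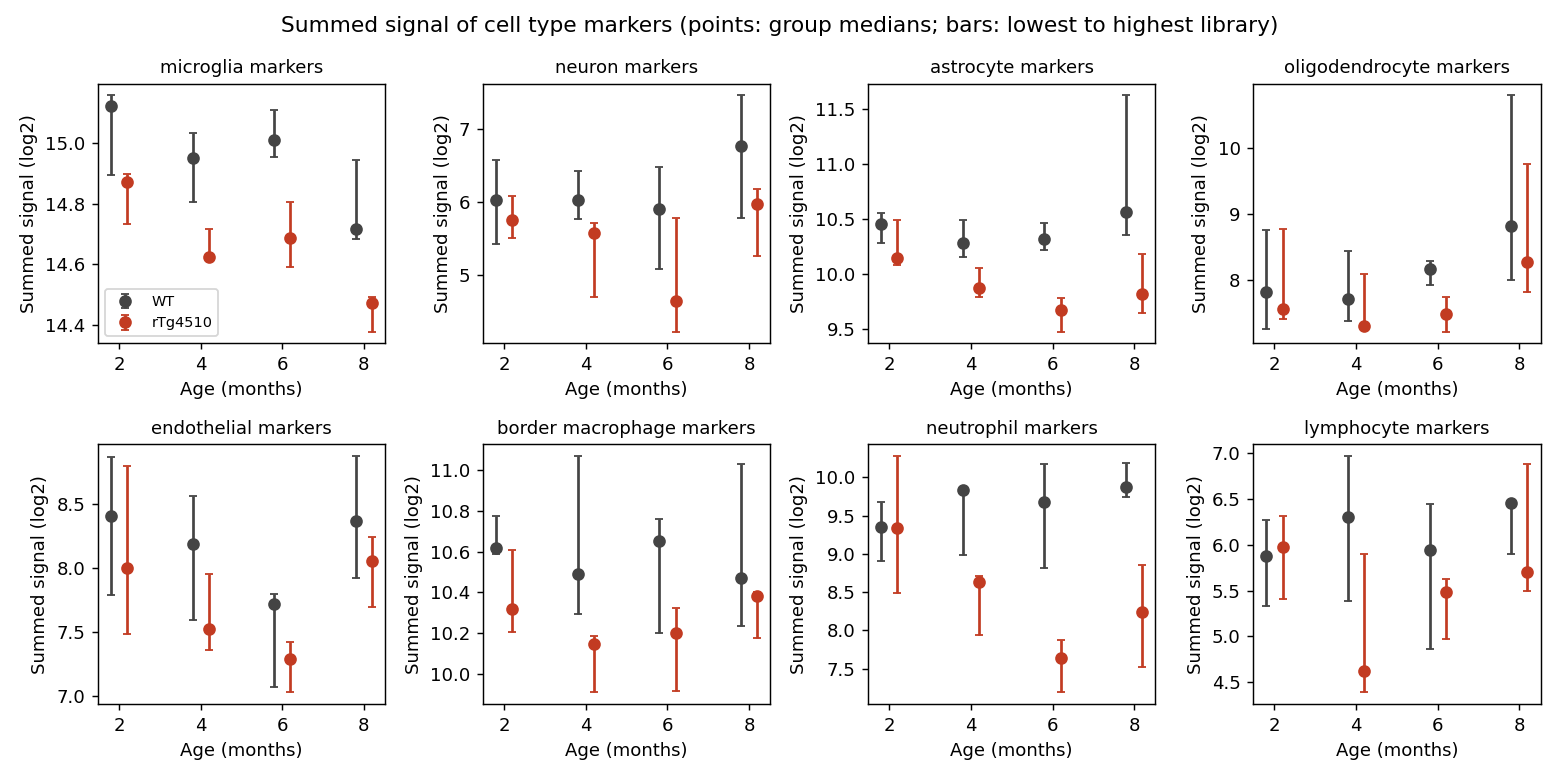
Summed signal (y axis, log2) of the markers of 8 cell types at 2, 4, 6 and 8 months (x axis), WT in grey and rTg4510 in red, with points for the group median and bars from the lowest to the highest library. Neutrophil markers lie apart by genotype from 4 months on, and neuron markers overlap at 6 and 8 months.

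The genes whose signal followed Hlf most closely over the 28 libraries were Bank1 (r = 0.98), a B-cell scaffold protein, Myo18b, an unconventional myosin (0.98), 1700095B10Rik (0.98), Setbp1, a nuclear SET-binding protein (0.98), and Ctnnd2, a delta-catenin (0.97). None of the 5 was a clock gene. The libraries fall into groups of genotype and age, so these values describe the shared group pattern. Bank1 stood at 7.86 ± 0.05, 7.87 ± 0.10, 7.88 ± 0.10 and 7.74 ± 0.06 in WT and at 7.43 ± 0.07, 6.40 ± 0.06, 5.69 ± 0.08 and 5.79 ± 0.14 in rTg4510 (SD, n = 4, 3, 4 and 3).

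The 4 libraries that failed quality control were read for the members as a description. rTg4510 replicate 3 of 4 months stood at 3.68 for Hlf, 3.25 for Dbp and 3.76 for Nr1d1, each below the 3 kept rTg4510 libraries of that age, but at 7.62 for Nr1d2, above them and above WT. In rTg4510 replicate 4 of 8 months Tef stood at 5.48, at the level of WT, and Nfil3 at 10.76, the highest of its group.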

How the data were processed

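Microglia RNA of rTg4510 and WT mice was prepared with a kit that does not keep strand. The deposited values are log2 gene signals made by the authors, who counted reads per exon, left out exons with few counts, combined exons into genes with a robust linear fit and scaled libraries to one median, so each library has a median of 5.63. The build was GRCm38 per the submitters' processing notes, and the aligner and annotation are not given in the sources used here. The signals are not per length, so levels were not compared between genes, and read totals of the single libraries were not used here, so no counting error was given and the number of libraries limits the precision. Genes were listed by Entrez number, of which 95.9% had a RefSeq symbol. No column of values was left unused.

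A linear model with 8 groups (genotype by age) was fitted in limma 3.58.1 (R 4.3.3, with the package data.table at version 1.17.8) to the 28 kept libraries with unmoderated variances and 20 residual degrees of freedom. Contrasts and F tests were adjusted by the Benjamini-Hochberg method over 18588 genes. The fit was tested on simulated data. Correlations used exact permutation within ages, two-sided (20736 orders), in Python 3.11.15 with numpy 2.4.6, scipy 1.17.1, pandas 2.3.3 and matplotlib 3.10.9. SE, SD and 95% intervals are on the log2 scale, and p-values measure the spread between these libraries.

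The 10 genes and all gene lists were chosen with earlier results of these data known. Named are all 10, at most 4 called genes of largest change per list, and the genes of highest r with Hlf and of highest and lowest r with Arntl and Dbp. Genes nearest to Per1 were added after seeing the data. Some results on the core clock list and on the genes nearest to Per1 are not reported here. Alternatives were all 32 libraries, only the groups of an age, moderated variances, quantile normalization, a filter at the 25th percentile of signal, a replicate block and each library left out. The replicate numbers were checked by the correlation of same-numbered deviations over all genes. This was 0.131 to 0.153 at 6 months and 0.15 to 0.291 at 8 months, where the numbers were taken to pair the libraries. It was 0.0649 to 0.167 at 2 months and -0.0999 to 0.124 at 4 months, where they were not. Libraries of other numbers gave -0.194 to 0.0816 at 2 months and -0.0709 to 0.154 at 4 months. At 6 and 8 months they gave -0.127 to 0.0913 and -0.259 to -0.0281. At 2 months each WT library had its highest value with the rTg4510 library of its number. The decision went by the lowest same-numbered value of an age.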

Additional observations from a re-analysis of the deposited data

Results flagged for a closer look

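Single libraries stood apart from their group in 5 of the 40 groups of 4 libraries tested over the 10 genes, judged by the gap to the nearest library as a share of the group's range, and chance gives about 1 in 20. Nr1d1 in WT replicate 2 of 6 months (signal 4.86) had a gap of 0.937 of the range, and Nr1d1 in rTg4510 replicate 3 of 6 months (5.74) a gap of 0.905. Per1 in rTg4510 replicate 1 of 2 months (8.03) had a gap of 0.857, Nr1d2 in WT replicate 2 of 2 months (7.48) a gap of 0.855 and Tef in rTg4510 replicate 4 of 6 months (3.64) a gap of 0.837.

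The genotype difference varied between ages by limma's F test of the interaction for 5 genes, with an FDR of 0.00209 for Nfil3, 0.00527 for Per3, 0.0237 for Nr1d2, 0.0275 for Per2 and 0.0463 for Tef.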

How the results depend on the processing

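With only the groups of an age in the fit, 4 of the 9 genes were called at 8 months instead of 7, without Tef, Per2 and Nr1d1, and Tef and Per2 were not called at 4 months. All 32 libraries left 0 age effects in WT (1 with the 28) and 0 same-number relations past adjustment (1 with 14 pairs), and quantile normalization left 3 interactions (5 without it), losing Per2 (FDR = 0.0986) and Tef (FDR = 0.0615, limma). All 32 libraries lost the interactions of Tef (FDR = 0.12) and Nr1d2 (FDR = 0.382) and passed that of Nr1d1 (FDR = 0.0396), and lost the calls of Dbp at 6 months, Nr1d2 at 4 months and Tef and Nr1d1 at 8 months, and Hlf at 4 months was then -2.79. Leaving out 1 library gave 0 calls at 2 months, 5 to 6 at 4 months, 5 at 6 months and 5 to 7 at 8 months, 0 to 2 age effects in WT, 7 in rTg4510 and 2 to 6 interactions. With the replicate block 0, 6, 5 and 8 genes were called at the 4 ages. Beyond Per1 at 8 months (0.62, FDR = 0.0155, limma) the replicate block changed no call. The filter took out Per2 and left 5, 4 and 6 calls at 4, 6 and 8 months. Changes of direction were all in values not called, and the cause was not tested. With 1 library left out, the log2 fold change ranged from -0.101 to 0.241 for Tef (-0.0840 without rTg4510 replicate 1, lowest without WT replicate 1), from -0.00854 (without rTg4510 replicate 1) to 0.199 for Nr1d1 and from -0.0725 to 0.0782 for Nr1d2 at 2 months (0.0121 and 0.0590 without rTg4510 replicates 2 and 3, highest without WT replicate 2). At 4 months it ranged from -0.248 (without WT replicate 2) to 0.222 for Per1 (-0.0501 and -0.00883 without rTg4510 replicates 1 and 4) and from -0.128 to 0.00392 (without rTg4510 replicate 1) for Arntl. With all 32 libraries Per1 was -0.27 at 4 months and Arntl 0.0015 at 8 months, and with quantile normalization Per1 was -0.0280 at 4 months. The r of Arntl in uncentred signals was -0.285 with Dbp, -0.252 with Nr1d1 and -0.0332 with Per1 in WT, and -0.390 with Dbp and -0.494 with Nr1d2 in rTg4510. With all libraries it was -0.0801 with Per1 in WT, and -0.00448 with Dbp and 0.427 with Tef in rTg4510. With quantile normalization it was -0.0801 with Per1 and 0.0446 with Per3 in WT, and -0.0455 with Dbp and -0.0470 with Per1 in rTg4510. Without the 2 farthest libraries it was -0.164 with Hlf in WT. The same-number r was -0.307 for Nr1d2 and 0.00586 for Per3 over all 16 pairs, 0.0437 for Per3 with quantile normalization, and -0.153 for Nr1d2 and 0.0428 for Arntl without the 2 farthest pairs.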
